A study of Mus musculus with 15 samples.

Results

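The potassium channel genes of the mouse dentate gyrus (DG) were taken as every row of the count files whose gene symbol begins with Kcn, which gave 98 of 32657 counted features. They comprise 17 genes of the main voltage-gated families (Kcna, Kcnb, Kcnc and Kcnd), 10 electrically silent voltage-gated subunits (Kcnf, Kcng, Kcns and Kcnv), 5 Kcnq genes, 8 Kcnh genes, 15 inward rectifiers (Kcnj), 14 leak channels with paired pore domains (Kcnk), 9 calcium-activated channel genes (Kcnm and Kcnn), 3 sodium-activated or related genes (Kcnt and Kcnu), 13 auxiliary subunits and 4 transcripts that are named after a channel gene but encode no subunit. Of the 98, 2 had no count in any library (Kcna10 and Kcnj1) and 18 were counted too rarely to enter any test, with a highest value of 0.669 CPM (counts scaled to the depth of the library) for Kcnmb1. The remaining 78 entered at least 1 comparison and 73 entered every one. In at least 1 comparison 43 passed, which is a union over comparisons with different limits. No share of all genes is given for that union, and shares are given below for each comparison.

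Potassium channels let potassium leave or enter the cell along its gradient and thereby set the resting potential, the shape of the action potential and the firing rate of a neuron. Granule cells of the DG are known for a strongly negative resting potential and sparse firing, which depend on inward rectifiers and leak channels, and A-type channels built from Kcnd subunits with Kcnip partners delay their firing. Astrocytes carry their own inward rectifiers, which take up potassium released by active neurons.

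RNA was sequenced from translating ribosome affinity purification (TRAP), in which ribosomes tagged with EGFP-L10a are pulled down from chosen cells, and from the whole tissue before the pulldown (input). All mice were C57BL/6J, aged 8 to 12 weeks, and carried the Drd3-Cre transgene KI198, active in mature granule and hilar mossy cells, with the Cre-dependent Rosa26-fsTRAP allele. The libraries labelled cKO came from mice that also carried floxed Htr4, in which Cre removes exon 5 of the serotonin receptor gene. WT mice lacked that allele. There were 3 libraries each of WT ventral DG (vDG) IP, WT vDG input and WT dorsal DG (dDG) input, and 2 libraries each of the same 3 kinds for cKO. The titles name the inputs as vDG or dDG and were followed, whereas the source label of every input reads whole cortex. The labels give 3 pooled mice for an IP and 2 for an input, whereas the methods describe a pool of 1 male and 1 female. The tag follows the activity of this bacterial artificial chromosome transgene in both genotypes, and the IP is a mixture of granule and mossy cells.

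Each library held 19039295 to 30451430 counts on genes, of which 0.337% to 0.4286% fell on Kcn genes. Htr4, counted over the whole gene, was higher in the libraries labelled cKO than in WT, at 28.5 ± 2.35 CPM (SD, n = 2) against 15.0 ± 1.27 CPM (n = 3) in the IP. Whole-gene counts do not resolve the deleted exon and so do not check the label. In the IP of WT mice against input, markers of several cell types outside the Cre line were depleted. These were 7 of 8 interneuron, 6 of 6 astrocyte, 5 of 6 oligodendrocyte and 6 of 6 microglia markers. Of other tested markers, 2 of 3 for oligodendrocyte precursors and 2 of 3 for mural cells were depleted. Fewer were depleted for choroid plexus (1 of 3), progenitors and immature neurons (1 of 4) and endothelial cells (0 of 3). Of 6 granule cell markers 2 were enriched, and none of 5 tested mossy cell markers passed.

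The highest potassium channel gene per unit of transcript length in the TRAP mRNA of WT vDG was Kcna1, an axonal channel subunit, at 83.0 ± 7.68 CPM per kb of exons (SD, n = 3). Levels between genes are compared on this per kb scale, because a longer transcript gives more fragments at equal abundance. The next 3 were auxiliary subunits. Kcnip2, a cytoplasmic partner of Kcnd channels, stood at 66.3 ± 5.54 CPM per kb, Kcnab2, a partner of Kcna channels, at 56.9 ± 11.6 CPM per kb, and Kcnip3, of the same family as Kcnip2, at 35.9 ± 8.86 CPM per kb. The mean of Kcnip2 lay within 1 SD of that of Kcnab2. Then came the leak channel Kcnk1 at 34.7 ± 4.76 CPM per kb and Kcnj3, a subunit of inward rectifiers opened by G proteins, at 28.3 ± 2.95 CPM per kb. Kcnip3 and Kcnk1 did not differ beyond their spread, nor did Kcnj3 and Kcnip4, which was at 28.3 ± 3.01 CPM per kb.

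In the other families the leading genes were lower. Kcnq5, a subunit of the M-current channel closed by muscarinic receptors, reached 13.4 ± 2.46 CPM per kb. The leading silent subunits were Kcnv1 at 12.4 ± 2.59 CPM per kb and Kcnf1 at 10.2 ± 1.64, which do not conduct alone but alter Kcnb channels. Kcnma1, the large-conductance calcium-activated channel, was at 9.99 ± 1.30 CPM per kb, and Kcnn3, a small-conductance channel, at 2.17 ± 0.549. Kcnh1 was at 8.62 ± 0.978 CPM per kb and Kcnh3 at 3.65 ± 0.345. Kcnt2, a sodium-activated channel, was at 4.72 ± 0.968 CPM per kb and Kcnu1, known from sperm, at 0.761 ± 0.105. Kcnk2, a leak channel that responds to stretch, was at 4.49 ± 0.700 CPM per kb. Over all 98 members, 20 had a mean of at least 10 CPM per kb in this group, 31 were between 1 and 10, and 47 were under 1. The 10 highest members held 56.2% of the summed CPM of the module.

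**Figure D1:**
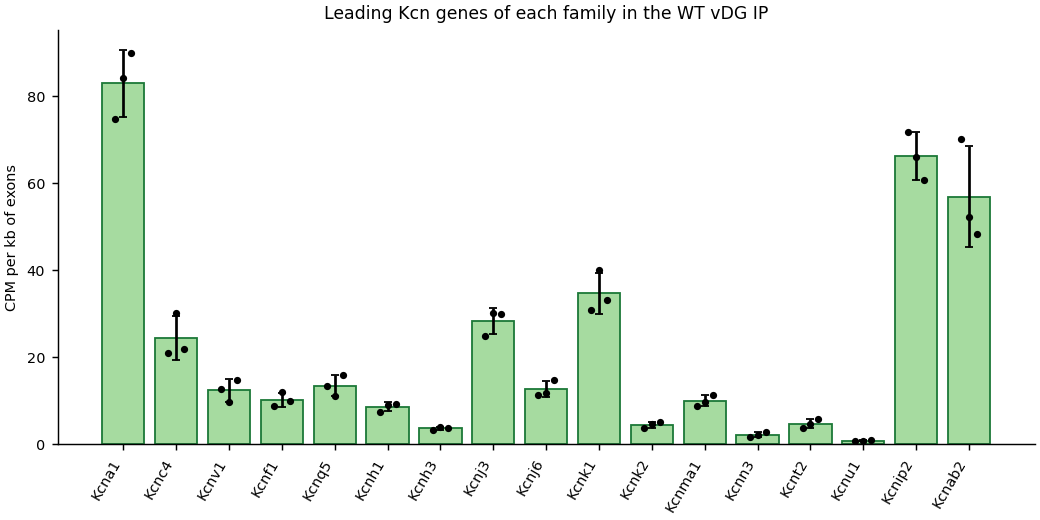
Level in CPM per kb of exons (vertical axis) of leading Kcn genes of each family in the 3 WT vDG IP libraries. Bars are means, error bars the SD and points the libraries, and Kcna1 stands highest at 83.0 CPM per kb while Kcnu1 is at 0.761.

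The comparison of IP with input asks which channel mRNAs were on ribosomes of the Cre-labelled neurons rather than in the rest of the tissue. In WT vDG, 6 of 77 tested members were enriched (a level at least 25% above input) and 10 were depleted (a level under 50% of input), both at an adjusted p under 0.05 by edgeR. Among all 15011 tested genes 7.72% were enriched and 11.4% depleted, against 7.79% and 13% of the members. The median log2 fold change of the members was -0.04, beside 0.00 over all genes tested. When only library size was used to scale, the split was 1 enriched and 11 depleted, since that scaling put the median of all genes at -0.13. Without WT vDG input replicate 1 there were 1 enriched and 9 depleted members, and without replicate 3 there were 2 and 8, so most of the enriched calls given below rest on those libraries.

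Among the inward rectifiers, the depleted members included Kcnj16 and Kcnj10, which pair with each other in astrocytes. Kcnj10 was at 5.73, 7.07 and 7.24 CPM in the 3 WT IP libraries and at 56.2, 65.9 and 54.8 CPM in the 3 WT vDG inputs. The groups lay far apart, with a log2 fold change of -3.20 (SE 0.15, adjusted p = 4.8e-09). Kcnj16 was at 0.761, 2.57 and 3.28 CPM in the IP and at 26.2, 33.0 and 23.4 CPM in the inputs, again with no overlap (log2 fold change -3.70, SE 0.33, adjusted p = 1.87e-06). Over the same libraries the summed level of the 6 astrocyte markers was 111.6 to 156.8 CPM in the IP and 755.9 to 908.5 CPM in the input, and its part in the result was not tested. Where inputs of different regions or genotypes are compared below, fewer cells of a type and less RNA per cell cannot be told apart.

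Because both genes moved together in the IP and again between genotypes, the 250 bases before the start of each are shown, from RefSeq on build GRCm38.p6, at chr1:172340960-172341209 for Kcnj10 and chr11:110967783-110968032 for Kcnj16, both on the plus strand. Capitals mark TTGGC, the half-site of nuclear factor I proteins, searched on both strands.
Kcnj10: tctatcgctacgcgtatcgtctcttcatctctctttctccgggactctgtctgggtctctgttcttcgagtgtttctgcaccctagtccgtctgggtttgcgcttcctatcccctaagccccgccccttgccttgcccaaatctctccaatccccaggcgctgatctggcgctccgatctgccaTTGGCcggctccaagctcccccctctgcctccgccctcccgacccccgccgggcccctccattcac
Kcnj16: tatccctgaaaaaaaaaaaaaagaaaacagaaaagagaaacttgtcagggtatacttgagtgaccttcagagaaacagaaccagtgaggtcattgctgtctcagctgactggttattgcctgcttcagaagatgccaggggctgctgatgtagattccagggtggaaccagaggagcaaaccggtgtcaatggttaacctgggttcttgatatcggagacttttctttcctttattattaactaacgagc
The Kcnj10 window held 1 TTGGC, the Kcnj16 window held 0, and 41.5% of 32851 windows of this length held at least 1 on either strand. Neither window held TATAA, which 22.8% of windows did. The Kcnj10 window was rich in G and C at 62% with 17 CpG, and the Kcnj16 window was at 42.8% with 3 CpG, beside a median of 52.4%. The table lists 1 start for Kcnj10 and 4 for Kcnj16, of which the one farthest upstream was taken, and the start in use in these cells was not measured.

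Among the auxiliary subunits, which attach to the pore-forming proteins, calls went in both directions. Kcnip1 was at 1.52, 1.42 and 1.94 CPM in the WT IP and at 7.36, 8.28 and 9.51 CPM in the WT vDG inputs, a depletion with a log2 fold change of -2.42 (SE 0.23, adjusted p = 3.18e-06). The other Kcnip genes did not pass, at -0.05 for Kcnip2, -0.17 for Kcnip3 and 0.17 for Kcnip4. The summed level of 8 interneuron markers moved in the same direction as Kcnip1, with 167.1 to 192.8 CPM in the IP and 450.7 to 524.2 CPM in the input, and its part was not tested. Kcnab2 was at 391.0, 291.4 and 269.4 CPM in the IP and at 222.8, 208.0 and 184.9 CPM in the inputs (log2 fold change 0.58, SE 0.15, adjusted p = 0.0119). Its relative Kcnab1 was also enriched, at 117.6, 111.1 and 128.1 CPM against 67.8, 83.5 and 92.9 CPM (0.49, SE 0.13, adjusted p = 0.015). The libraries of both groups did not overlap for either gene.

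Of the main voltage-gated families, 1 of 15 tested members was called. Kcnd2, an A-type subunit of dendrites, was enriched at 92.5, 96.7 and 104.5 CPM against 65.4, 75.1 and 66.4 CPM (log2 fold change 0.45, SE 0.12, adjusted p = 0.0132). The silent subunits were called in both directions, with 2 of 9 enriched and 2 depleted. Kcnf1 and Kcng1 were enriched, with log2 fold changes of 0.45 (adjusted p = 0.0309) and 0.52 (adjusted p = 0.0373). Kcng4 was depleted, at 0.280, 0.0790 and 0.475 CPM in the IP and 1.86, 1.96 and 1.82 CPM in the input (-2.79, SE 0.50, adjusted p = 0.00105), and Kcns3 fell to the same side at -1.24 (adjusted p = 0.00277). Of the Kcnh genes 1 of 7 was enriched, Kcnh3, at 0.49 (adjusted p = 0.0372). No Kcnq, Kcnk, Kcnt or Kcnu gene was called by edgeR, and at an unadjusted p under 0.05 there were 3 of them higher and 1 lower. Kcnmb2, a subunit that inactivates Kcnma1 channels, was depleted at -1.46 (SE 0.31, adjusted p = 0.00377), whereas Kcnma1 itself was at 0.06 (SE 0.13, adjusted p = 0.778). The depleted Kcne1l and Kcnj13 had means under 1 CPM, and their folds are not given.

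In the cKO libraries, 10 of 76 members were enriched and 11 depleted, that is 13.2% and 14.5% of the members beside 11.4% and 10.7% of 15126 genes. The count fell to 12 without cKO vDG input replicate 1 and to 11 without replicate 2, while scaling by library size alone gave 4 enriched and 13 depleted, with the median of all genes at -0.20. Both genotypes called Kcnab1, Kcnab2, Kcnd2 and Kcnh3 enriched, which is 66.7% of the WT list and 40% of the cKO list. They shared 9 depleted members, or 90% and 81.8% of the lists, and 0 members were called in opposite directions. Kcnj10 was at 9.03 and 7.71 CPM in the cKO IP and 38.4 and 37.1 CPM in the cKO input (log2 fold change -2.23, SE 0.16, adjusted p = 9.85e-07), and Kcnj16 was at 2.90 and 2.84 CPM against 13.6 and 13.3 CPM (-2.28, SE 0.23, adjusted p = 2.73e-05). The M-current gene Kcnq5 (0.58, SE 0.11, adjusted p = 0.00281) passed here, beside 0.38 in WT, as did Kcnip4, Kcnh1, Kcnj3 and the silent subunit Kcng2. Kcnn2, a small-conductance calcium-activated channel, was depleted at -1.10 (SE 0.18, adjusted p = 0.000793), beside -0.87 in WT, where it missed the fold limit.

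**Figure D2:**
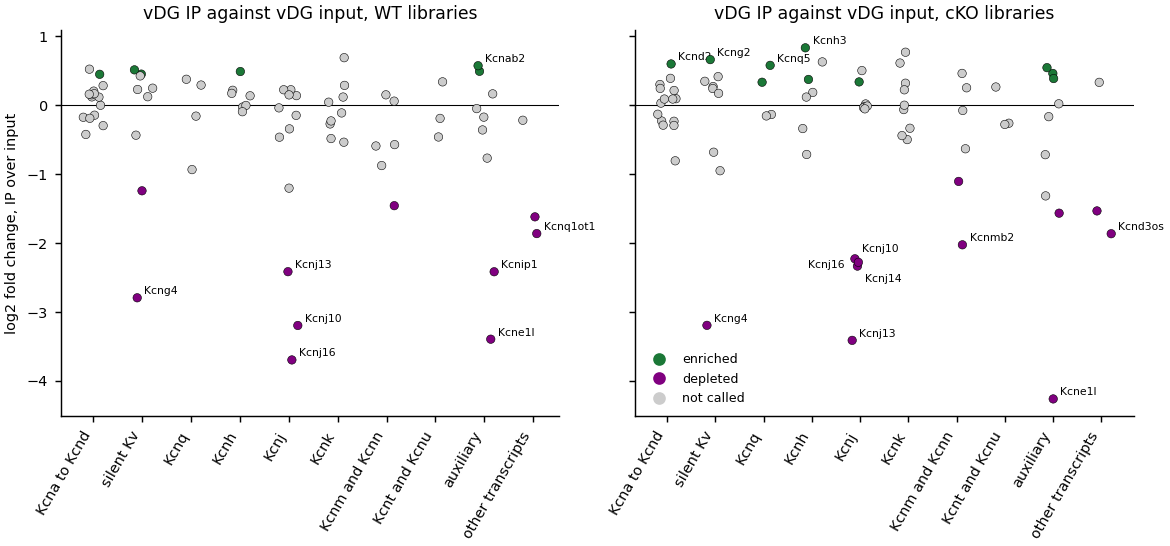
Log2 fold change of vDG IP over vDG input (vertical axis) of each tested Kcn gene, by family, in WT (left) and cKO libraries (right). Green points are enriched, purple points depleted and grey points not called, and Kcnj10, Kcnj16 and Kcng4 lie under -2 in both panels.

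The comparison of vDG with dDG input asks which channels differ along the long axis of the DG. In WT, 14 of 78 tested members were higher in vDG and 8 were lower at an adjusted p under 0.05 by edgeR, that is 17.9% and 10.3% of the members beside 9.26% and 6.09% of 15412 genes. The median over the members was 0.04 on the log2 scale and -0.01 over all genes. Without WT vDG input replicate 3, 11 members were called, 6 higher and 5 lower. The tissue pieces also differed in their marker levels. The summed level of 6 mossy cell markers was 197.9 to 237.5 CPM in WT vDG and 57.2 to 69.3 CPM in WT dDG, the 8 interneuron markers summed to 450.7 to 524.2 and 294.6 to 359.8 CPM, the 6 granule cell markers to 1820.2 to 2140.5 and 2654.9 to 2749.6 CPM, and the 6 markers of CA pyramidal cells, from the neighbouring fields, to 69.4 to 73.9 and 42.0 to 53.6 CPM. Of those 6 CA pyramidal cell markers, 4 were called higher and 2 lower in vDG, so their sum does not stand for each of them. The part of the marker levels in the differences was not tested.

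Kcnq5, a subunit of the M-current channel, had the largest difference of any member. It was at 69.6, 89.6 and 70.4 CPM in WT vDG input and at 5.62, 8.53 and 12.1 CPM in WT dDG input. Every ventral library was above every dorsal one, with a log2 fold change of 3.14 (SE 0.21, adjusted p = 3.51e-08). Its partner Kcnq3 stood at -0.12 without a call. On the per kb scale Kcnq5 ranked 20 of the 98 members in WT vDG input and 50 in WT dDG input.

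Kcnc2, which lets neurons fire fast, was at 72.6, 74.2 and 81.6 CPM in vDG and at 20.2, 26.0 and 27.4 CPM in dDG (log2 fold change 1.65, SE 0.13, adjusted p = 2.42e-07). Its relatives Kcnc1 and Kcnc4 were not called. Of the other main voltage-gated genes, Kcna6 (0.52, adjusted p = 0.0348) and the A-type subunit Kcnd3 (0.41, adjusted p = 0.021) were higher in vDG and Kcna1 was lower (-0.35, adjusted p = 0.0364). Silent subunits were called in both directions, with Kcng3 at 1.12, Kcnv1 at 1.03 and Kcnf1 at 0.40 higher and Kcng4 at -1.20 lower. Kcnv1 was at 47.2, 49.7 and 41.0 CPM in vDG and at 27.4, 21.1 and 20.4 CPM in dDG, with no overlap (SE 0.14, adjusted p = 7.93e-05).

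Among leak channels Kcnk1 went the other way from Kcnk13 and Kcnk4. Kcnk1 was at 62.9, 75.5 and 67.8 CPM in vDG and at 155.3, 140.2 and 131.0 CPM in dDG (log2 fold change -1.03, SE 0.12, adjusted p = 8.9e-06). Kcnk13 was at 2.60, 3.09 and 4.89 CPM in vDG and 0.629, 1.65 and 1.45 CPM in dDG (1.52, adjusted p = 0.00743), and Kcnk4, which opens on stretch, was at 2.12, 1.75 and 2.37 against 0.584, 0.648 and 0.991 CPM (1.48, adjusted p = 0.0126). Levels of the last pair were low, and neither had overlapping groups.

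The inward rectifiers were mostly on the dorsal side, with 4 of 13 lower in vDG, 1 higher and a median of -0.40. Kcnj11, the pore of the ATP-sensitive channel, was at 10.2, 12.9 and 11.1 CPM in vDG and at 25.3, 22.6 and 23.8 CPM in dDG (log2 fold change -1.05, SE 0.14, adjusted p = 6.69e-05). Kcnj3 (-0.43, adjusted p = 0.0192) and Kcnj6 (-0.55, adjusted p = 0.0108), partners in channels opened by G proteins, were both lower in vDG, and so was Kcnj4 (-0.58, adjusted p = 0.0305). Kcnj9, of the same group, was at 0.32 without a call. Kcnj16 was the exception, at 26.2, 33.0 and 23.4 CPM in vDG and 10.9, 9.08 and 11.1 CPM in dDG (1.43, SE 0.16, adjusted p = 7.15e-06), while its astrocyte partner Kcnj10 was not called at -0.27. The summed astrocyte markers were at 755.9 to 908.5 CPM in vDG and at 739.4 to 745.8 CPM in dDG, with 1 of 6 called higher.

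The sodium-activated channels were called in opposite directions, Kcnt1 higher in vDG at 1.49 (SE 0.26, adjusted p = 0.000712) and Kcnt2 lower at -0.72 (SE 0.14, adjusted p = 0.00161). Kcnt2 was at 37.2, 41.5 and 28.3 CPM in vDG and at 62.6, 60.3 and 56.3 CPM in dDG. Of the calcium-activated family Kcnma1 (0.39, adjusted p = 0.037) and its subunit Kcnmb2 (1.45, SE 0.34, adjusted p = 0.00663) were higher in vDG, and all 6 tested genes of the family had positive values. No Kcnh gene and no auxiliary subunit was called by edgeR, with 1 Kcnh gene lower and 0 auxiliary subunits at an unadjusted p under 0.05, and the auxiliary subunits ran from -0.16 to 0.29.

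In the cKO inputs, 7 members were higher in vDG and 12 lower, or 8.97% and 15.4% of 78, beside 8.56% and 8.47% of 15505 genes. Both genotypes called Kcnq5, Kcnc2, Kcng3, Kcnk13, Kcnmb2 and Kcnv1 higher, which is 42.9% of the WT list and 85.7% of the cKO list, and 6 members lower, 75% and 50% of the lists, with 0 opposite calls. Kcnq5 was at 47.6 and 44.8 CPM in cKO vDG and at 11.3 and 13.5 CPM in cKO dDG (log2 fold change 1.91, SE 0.14, adjusted p = 1.21e-08). Kcnk1 was at 61.7 and 53.8 against 138.3 and 152.4 CPM (-1.32, SE 0.12, adjusted p = 1.23e-07). Kcna4, an A-type channel of axons (-0.96), Kcns2 (-0.72), Kcng2 (-0.63), Kcnd2 (-0.57) and Kcnj10 (-0.65, adjusted p = 0.00126) were lower in vDG in the cKO list and not in the WT list, and Kcns1 was higher at 1.11. A difference between the genotypes in these effects was tested separately.

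Kcnj2, an inward rectifier that holds the resting potential, varied widely between libraries of the same group. In WT it was at 46.7, 13.0 and 21.6 CPM in the IP, at 43.0, 14.6 and 13.3 CPM in vDG input and at 82.9, 27.8 and 30.8 CPM in dDG input. The library numbered 1 was the highest in each of the 3 WT groups. In cKO it was at 14.4 and 32.6 CPM in the IP, 14.2 and 32.3 CPM in vDG input and 68.8 and 72.2 CPM in dDG input, and its region difference was called there at -1.59 (SE 0.22, adjusted p = 2.92e-05). That value was -1.13 without cKO vDG input replicate 1 and -2.32 without replicate 2, and the call was lost with all 15 libraries in one fit (adjusted p = 0.102). In WT the ventral and dorsal libraries overlapped, at -0.97 (SE 0.40, adjusted p = 0.121).

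**Figure D3:**
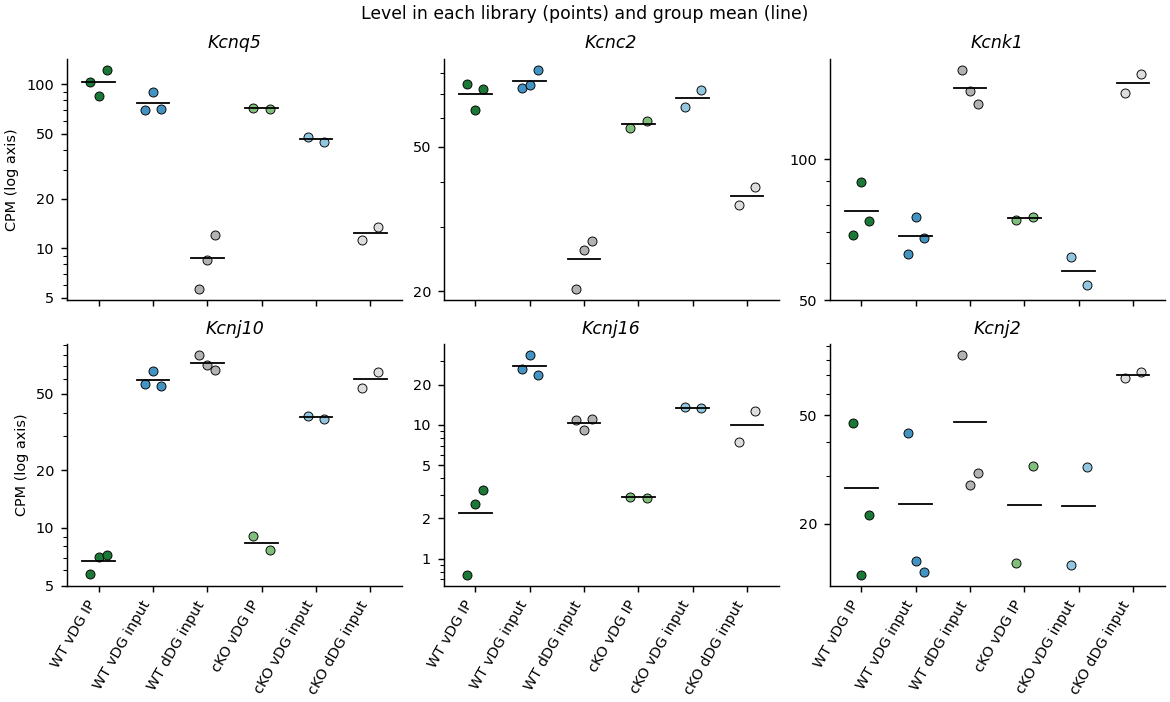
CPM (vertical log axis) of Kcnq5, Kcnc2, Kcnk1, Kcnj10, Kcnj16 and Kcnj2 in each library of the 6 groups, with points for libraries and lines for group means. Kcnq5 and Kcnc2 are low in the dDG inputs, Kcnk1 is high there, Kcnj10 and Kcnj16 are low in the IPs, and Kcnj2 is scattered within the WT groups.

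**Figure D4:**
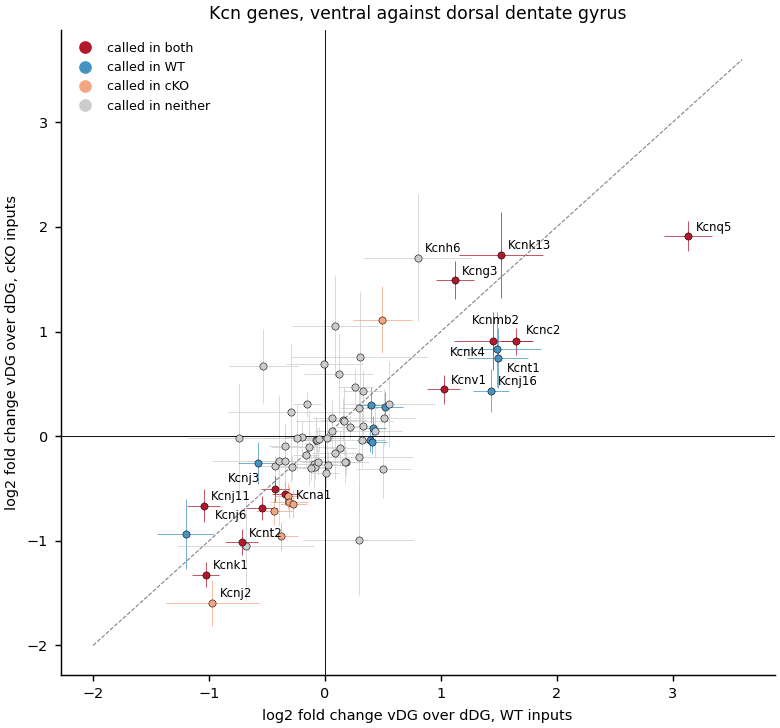
Log2 fold change of vDG over dDG input of each Kcn gene in WT (horizontal axis) and cKO libraries (vertical axis), with bars for the SE and a dashed line of equal values. Genes called in both genotypes are red, and Kcnq5 lies farthest to the right at 3.14 in WT and 1.91 in cKO.

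The comparison of cKO with WT asks which channel mRNAs differed when the serotonin receptor was disrupted. In the vDG IP no member passed an adjusted p under 0.1 by edgeR among 73 tested, beside 0.0699% of 14300 genes called higher and 0.35% called lower. At an unadjusted p under 0.05 by edgeR there were 2 members higher and 8 lower, and DESeq2 called 2. Shares of all genes are not given for these counts, so they do not set the members apart from other genes. In 7 members (9.59%) every cKO library lay above every WT library and in 13 (17.8%) below, beside 14% and 16.8% of all genes. The members with the lowest p in each direction are given as values. Kcnf1 was at 36.4 and 27.5 CPM in cKO and at 41.7, 57.2 and 47.1 CPM in WT (log2 fold change -0.60, SE 0.18, adjusted p = 0.236), Kcnq5 at 72.2 and 71.1 against 102.9, 84.6 and 122.4 CPM (-0.52, SE 0.16, adjusted p = 0.247), and Kcnv1 at 41.4 and 42.0 against 58.6, 44.2 and 67.7 CPM (-0.43, adjusted p = 0.363). DESeq2 gave an adjusted p of 0.0703 to Kcnf1 and 0.0746 to Kcnq5. On the other side were Kcnip1 at 0.98 (adjusted p = 0.326), the transcript Kcnq1ot1 at 0.59 (adjusted p = 0.423) and Kcnh4 at 0.66 (adjusted p = 0.579).

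In vDG input, 3 of 78 members fell in the libraries labelled cKO and 0 rose, that is 3.85% of the members lower beside 2.33% of 15786 genes, with 0.108% of all genes higher. At an unadjusted p under 0.05 by edgeR there were 15 members lower and 1 higher, again without a share of all genes beside them. The libraries did not overlap in 20 members below and 2 above, or 25.6% and 2.56%, beside 17.6% and 15% of all genes. Kcnj16 was at 13.6 and 13.3 CPM in cKO and at 26.2, 33.0 and 23.4 CPM in WT (log2 fold change -1.04, SE 0.17, adjusted p = 0.00331). Kcnq5 was at 47.6 and 44.8 against 69.6, 89.6 and 70.4 CPM (-0.73, SE 0.14, adjusted p = 0.00702). Kcnj10 was at 38.4 and 37.1 against 56.2, 65.9 and 54.8 CPM (-0.65, SE 0.14, adjusted p = 0.0124). All 3 had cKO libraries wholly below the WT libraries. None of the 3 passed when either cKO library was left out, at adjusted p of 0.0893 and 0.053 for Kcnj16, 0.162 and 0.149 for Kcnq5, and 0.221 and 0.191 for Kcnj10.

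Kcnj10 and Kcnj16 fell together with the astrocyte markers in vDG input, where 3 of 6 markers were called lower and the summed level was 651.7 to 656.7 CPM in cKO and 755.9 to 908.5 CPM in WT. In the vDG IP the sum was also lower in cKO, at 89.6 to 107.65 against 111.6 to 156.8 CPM. There Kcnj10 was at 0.33 and Kcnj16 at 0.39, neither of them called. In dDG input the sum was 578.8 to 684.3 CPM in cKO and 739.4 to 745.8 CPM in WT, with Kcnj10 at -0.29 and Kcnj16 at -0.06. In vDG input the sums of 4 other lists also lay lower in cKO without overlap. They were 383.9 to 393.1 against 450.7 to 524.2 CPM for 8 interneuron markers and 53.4 to 56.5 against 69.4 to 73.9 CPM for 6 CA pyramidal cell markers. For 6 microglia markers they were 14.9 to 21.5 against 22.9 to 36.9 CPM. For 3 markers of oligodendrocyte precursors, of which 1 was called lower, they were 28.3 to 28.8 against 35.4 to 40.7 CPM. None of the interneuron, CA pyramidal cell or microglia markers was called. Positive values were held by 2 of 8 interneuron, 2 of 6 CA pyramidal cell and 1 of 3 precursor markers. The part of these marker differences in the fall of Kcnj10, Kcnj16 and Kcnq5 was not tested. The granule cell markers summed to 1970.3 to 2045.4 CPM in cKO and 1820.2 to 2140.5 CPM in WT, with 1 of 6 called lower. Members that did not pass included Kcnma1 at -0.48 (adjusted p = 0.061) and Kcnf1 at -0.43 (adjusted p = 0.157) below, and Kcnip2 at 0.30 (adjusted p = 0.259), Kcnq1ot1 at 0.25 and Kcnab1 at 0.18 above. By family, all 4 tested Kcnq genes and 12 of 15 main voltage-gated genes had negative values, with medians of -0.36 and -0.24, beside 0.01 over all genes. The other families with subunits had medians from -0.19 to 0.10, the highest that of the auxiliary subunits, with 5 positive and 4 negative values. In dDG input all 4 tested Kcnq genes had positive values, with a median of 0.10.

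In dDG input no member was called by edgeR among 78, beside 0.0065% of 15383 genes higher and 0.026% lower. At an unadjusted p under 0.05 by edgeR there were 4 members higher and 9 lower, and DESeq2 called 1, again without shares of all genes. Libraries did not overlap for 8 members above (10.3%) and 15 below (19.2%), beside 14.2% and 15.2% of all genes. Kcnc2 was at 34.6 and 38.7 CPM in cKO and at 20.2, 26.0 and 27.4 CPM in WT (log2 fold change 0.57, SE 0.14, adjusted p = 0.167), and Kcnip1 was at 0.53 (adjusted p = 0.338) and Kcnip2 at 0.26 (adjusted p = 0.335). Below were Kcnc4 at -0.40 (adjusted p = 0.185) and Kcnh3 at -0.42 (adjusted p = 0.274). Of the 3 members that fell in vDG input, Kcnj16 was at -0.06, Kcnj10 at -0.29 and Kcnq5 at 0.48 here, none of them called.

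Whether genotype acted differently by fraction or by region was tested with interaction terms, and 0 of 78 members passed in either, as 0% of all genes did. By fraction, 3 members were positive and 1 negative at an unadjusted p under 0.05 in edgeR, DESeq2 called 0, and the lowest p was that of Kcnj10 at 0.996 (SE 0.22, adjusted p = 1). By region, 2 were positive and 9 negative and DESeq2 called 2. For both interactions these counts have no share of all genes beside them. The values were -1.22 for Kcnq5 (SE 0.29, adjusted p = 0.144), -0.75 for Kcnc2 (SE 0.19, adjusted p = 0.15), -0.998 for Kcnj16 (SE 0.28, adjusted p = 0.182) and -0.58 for Kcnv1 (SE 0.21, adjusted p = 0.26). The genotype and region comparisons share the WT and cKO vDG input libraries, and the genotype and IP comparisons share the vDG IP and input libraries, so their values for a member are not independent of each other.

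Potassium channel genes are long along the genome, and gene length moved with genotype over all genes, so the genotype values were set beside length. In vDG input the median tested member had 4.59 kb of exons beside 4.49 kb for all genes, and spanned 39.7 kb of genome beside 25.3 kb. Across all genes with a length, the Spearman correlation of exonic length with the log2 fold change was -0.25 in vDG input, -0.15 in the vDG IP and 0.17 in dDG input. These are correlations across genes, which are not independent replicates, given as a description. With all genes split by exonic length into 5 bins of equal size, the median of all genes in vDG input fell from 0.13 in the shortest bin to -0.10 in the longest. The members' medians in the same bins, from short to long, were -0.08, 0.00, -0.22, -0.18 and -0.16, of 9, 19, 21, 14 and 15 genes, so that only the middle bin held 20 or more.

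With the trend over all genes subtracted at each member's exonic length, the median of the members in vDG input was -0.14, from -0.15 before, and 51 of 78 members lay under the trend. With the genomic span in its place the median was -0.11 and 50 were under the trend. In the IP the median of -0.09 became -0.06 by exonic length and -0.03 by span, and in dDG input -0.03 became -0.02 and -0.01. Kcnq5 spans 563.5 kb, where the span trend of all genes in vDG input stood at -0.20, which left -0.53 of its -0.73. Its adjusted p was 0.0133 with the exonic trend removed and 0.0556 with the span trend removed. Kcnj10, of 32.9 kb, and Kcnj16, of 59.9 kb, stood where the span trend was -0.02 and -0.08, and both passed with either trend removed, at an adjusted p of 0.0204 and 0.0193 for Kcnj10 and of 0.00274 and 0.00501 for Kcnj16. With the exonic trend removed 3 members were called in vDG input, and with the span trend removed 2.

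**Figure D5:**
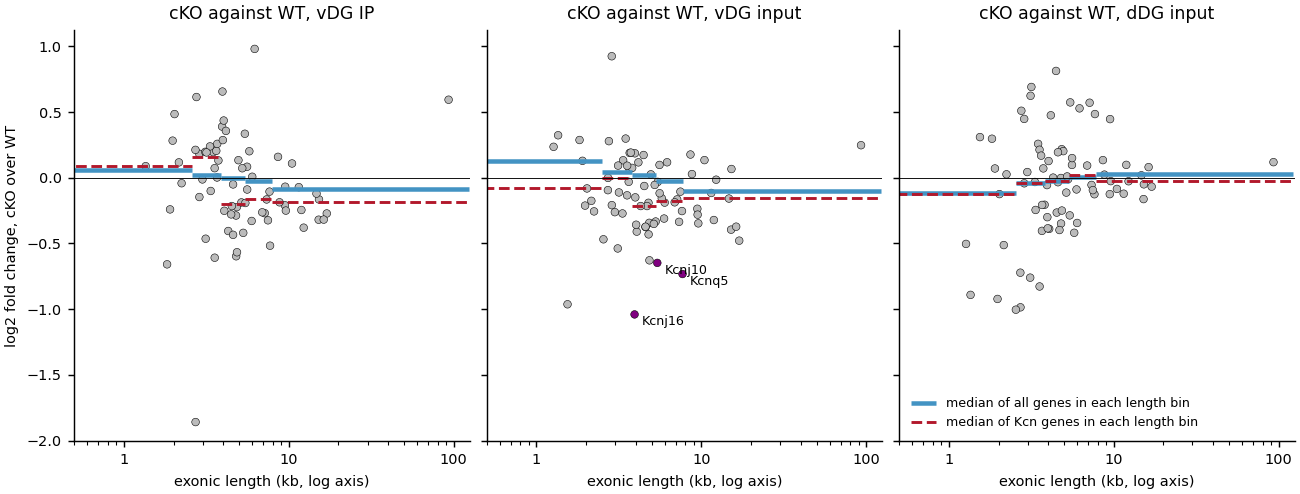
Log2 fold change of cKO over WT (vertical axis) against exonic length in kb (horizontal log axis) for each tested Kcn gene in the vDG IP, vDG input and dDG input. Blue lines are medians of all genes and dashed red lines medians of Kcn genes in each of 5 length bins, purple points are the 3 called genes, and the blue lines fall with length in vDG input from 0.13 to -0.10.

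Of the 4 transcripts named after a channel gene that encode no subunit, 3 were tested. Kcnq1ot1, named as an overlapping transcript of Kcnq1, was at 4.57, 4.98 and 3.52 CPM in the WT IP and at 16.4, 14.9 and 14.4 CPM in WT vDG input (log2 fold change -1.86, SE 0.19, adjusted p = 6.08e-06), and it was depleted in cKO at -1.53. Kcnq1 itself was not tested, with at most 0.360 CPM. Kcnd3os, named as the opposite strand of Kcnd3, was depleted at -1.62 in WT (adjusted p = 0.0305) and -1.86 in cKO (adjusted p = 0.0127). Kcnmb4os2 was not called in any comparison. The library kit does not keep the strand, so reads of these transcripts and of the genes they overlap cannot be told apart.

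Proteins that assemble with potassium channels or act beside them were followed as a list of 17 genes, of which 15 were tested. In the WT IP 1 was enriched and 1 depleted, beside 7.72% and 11.4% of all genes. Abcc8, the sulfonylurea receptor that completes the Kcnj11 channel, was enriched at 0.66, a call lost without WT vDG input replicate 1 or 3 (adjusted p = 0.051 and 0.0559). Dpp10, an accessory protein of Kcnd channels, was depleted at -1.01, close to the fold limit, and missed that limit under 7 alternatives. Between the WT regions, 4 of the 15 were higher in vDG and 2 lower, beside 9.26% and 6.09% of all genes. Among the higher were Dpp10 at 1.37, Cntnap2, which clusters Kcna channels on axons, at 1.27, and Pex5l, an accessory channel protein, at 0.75. Lower in vDG were Lrrc55, a subunit of Kcnma1 channels, at -1.41 and Abcc8 at -0.87, the latter on the same side as Kcnj11. In vDG input of the libraries labelled cKO, Dpp6, the relative of Dpp10, fell by 0.52 on the log2 scale (adjusted p = 0.0337) and Cntnap2 fell by 0.58 (adjusted p = 0.0315), beside 2.33% of all genes lower. These genes span 910.3 and 2245 kb, and neither passed with the exonic trend removed (adjusted p = 0.149 and 0.101) or with the span trend removed (0.386 and 0.544). Neither passed when either cKO library was left out, at adjusted p of 0.371 and 0.266 for Dpp6 and of 0.284 and 0.318 for Cntnap2. The lower marker sums of vDG input given above for the cKO libraries stand beside these values too, and their part was not tested.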

How the data were processed

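The authors trimmed the paired reads of 75 bp with Trim Galore, aligned them to mm10 with STAR 2.4.2a, removed duplicates with SAMtools 0.1.19-444 and counted them per gene with HTSeq in union mode at its default settings. The RNA had been amplified with the NuGEN Ovation kit. The deposited values are raw counts per gene, 1 table for each of 15 libraries. Rows that name no gene, which held 24.7% to 37.8% of the counts of each table, were left out. The authors' own comparison tables, which hold fold changes and p-values, were not used.

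Tests used edgeR 4.0.16 (quasi-likelihood F-test, TMM scaling, filterByExpr) in R 4.3.3, fitted over all genes for each pair of groups, with Benjamini-Hochberg adjustment over all genes tested. The limit on the adjusted p was 0.05, except for genotype in the IP and for genotype by fraction, where it was 0.1. IP calls also needed a fold of at least 1.25 or under 0.5. Counts of members at an unadjusted p under 0.05 by edgeR, and counts by DESeq2, are given without a share of all genes. Folds are those of edgeR with its prior count. CPM scales counts by the TMM-adjusted total on genes, and CPM per kb divides by the union of exons in GENCODE M21, which matched 71.8% of features and all tested members. Length trends are loess fits over all genes. Alternatives were DESeq2 1.42.0, other scalings and filters, a replicate block, length trends and leaving out each library. The smallest exact permutation p for 3 libraries against 2 is 0.2, so no single-gene permutation test was run. Nothing states that the libraries are from separate litters or days, and p-values measure the spread between these libraries. With 19039295 to 30451430 counts, 3 counts are 0.0991 to 0.150 CPM.

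The members, the families, the marker lists and the partner list were chosen with earlier results of these data known. Named were the 15 called members with the largest change in each direction of a comparison with a mean of at least 1 CPM, the 2 highest per kb in each family, the 3 lowest p where under 5 were called between genotypes, the transcripts that encode no subunit, and called partners. Kcnq3, Kcnip3, Kcnip4, Kcnj9, Kcnn2 in WT, Kcnj2 in WT and Kcnq1 were named after their values were seen, to set relatives or groups side by side. Values of some genes that this rule names are not reported here.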

Additional observations from a re-analysis of the deposited data

Results flagged for a closer look

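Kcnj10, Kcnc2 and Kcnd3os had genotype differences of opposite direction in every library of a pair of settings. Kcnj10 was at 0.33 in the vDG IP, with both cKO libraries above the 3 WT libraries, and at -0.65 in vDG input, with both below. The interaction of genotype and fraction had an unadjusted p of 0.000263 by edgeR across all genes and an adjusted p of 1. Kcnc2 was at -0.16 in vDG input and at 0.57 in dDG input, and its interaction of genotype and region had an adjusted p of 0.15. Kcnd3os was at 0.32 in vDG input and at -0.89 in dDG input, with an adjusted p of 0.303 for the interaction and levels under 4 CPM in every library. None of the 3 interactions passed by edgeR with its count filter. Without that filter the adjusted p was 0.0851 for Kcnj10, under its limit of 0.1, and 0.0167 for Kcnc2, and DESeq2 gave Kcnc2 0.0155, while Kcnd3os passed under no alternative.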

How the results depend on the processing

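No fold of a named Kcn gene reversed its direction under the alternatives run. Counts of called members could only be labelled the same or moved, so a reversal was not checked for them. For the partner genes the same alternatives were added after seeing the data, and of 326 on 22 values 279 kept the side of the threshold, 47 lost the call and 0 reversed. Of 1750 alternatives run on 113 values, 1570 were labelled the same, 30 moved, 127 lost the call and 23 gained one. The values were the folds of named members and the median over members in each comparison. A fold was the same if it kept its direction and its side of the threshold. A median was the same if it shifted by no more than its spread with single libraries left out, and otherwise had moved. The 16 members called between IP and input in WT were 9 with at least 10 counts in every library and 10 to 16 with single libraries left out. The 21 called in cKO were 11 to 25 with single libraries left out. The WT region count of 22 was 11 to 20, and the cKO region count of 19 was 30 with a replicate block, 29 at an adjusted p under 0.1, and 18 to 25. For cKO against WT in the IP, 0 became 2 with DESeq2, 2 without a count filter, 3 with all 15 libraries in one fit, and 0 to 1 with single libraries left out. In vDG input, 3 became 5 with DESeq2, 1 with all 15 libraries in one fit, and 0 to 5. In dDG input, 0 became 1 with DESeq2, 2 without a count filter, and 0 to 1. The interaction with fraction gave 2 without a count filter, and that with region gave 2 with DESeq2, 3 without a count filter, and 0 to 1. The causes were not tested. With the replicate block the other counts were 16 and 25 between IP and input in WT and cKO, 27 for the WT region, 0 for cKO against WT in the IP, 3 in vDG input, 0 in dDG input and 0 for both interactions. Each input is described as a part of the material that went into an IP, but no source ties libraries by number, and the file names of the cKO dDG inputs carry other replicate numbers than the titles. Deviations of same-numbered libraries correlated at 0.464, -0.165 and -0.328 between WT IP and input, and at 0.385, -0.112 and 0.224 between the WT regions, and groups of 2 give only 1 value each, 0.405 for cKO IP and input and 0.159 for the cKO regions, so pairing is not settled and no pairing was assumed. Where a group of 2 loses a library, the lone library is assumed to vary like the others. Groups of 2 cKO libraries limit every genotype value here, and members under 1 CPM had too few counts for a fold.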
